A study of Mus musculus with 8 samples.

Results

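Kidneys of Utx knockout mice were compared with wild-type kidneys 3 days after ischemia-reperfusion (I/R), an injury in which the blood flow of the kidney is stopped and then restored. The comparison set 2 knockout libraries against 2 wild-type libraries, and its members were the 13304 of 54965 genes whose mean over the 8 libraries of the series was 1 FPKM or more (fragments per kilobase of gene, scaled to the sequenced total). The other 4 libraries were 2 of wild type and 2 of knockout kidney without I/R. The labels name the knockout UtxPax2 Cre, that is, Utx deletion by a Cre recombinase named for Pax2, a transcription factor gene of the lineages that form the nephron and the collecting duct. They do not give age, strain or sex, do not say whether the wild-type mice carried a floxed allele or Cre, and do not say whether the samples without I/R were sham operated. Samples are not tied to animals in the labels, so p-values reflect the spread between samples alone, which may be technical. A later time point that the shared protocol mentions is not analysed here.

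Utx, whose gene symbol is Kdm6a, encodes a histone demethylase that removes the repressive methyl marks that the polycomb complex PRC2 places on histone H3, and it works inside the COMPASS complexes that mark enhancers. A healthy nephron filters blood in the glomerulus, recovers sugar, phosphate, amino acids and bicarbonate in the proximal tubule, and then adjusts salt, calcium, magnesium and acid in the thick ascending limb, the distal convoluted and connecting tubule and the collecting duct. After ischemia, tubule cells lose transporters and oxidative metabolism, and surviving cells take on an injured, less differentiated state with simple-epithelium keratins, secreted injury proteins and entry into the cell cycle.

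The targeted gene was examined first. Kdm6a (chromosome X, 18162575 to 18279936, plus strand, GRCm38) was at 3.00 and 2.97 FPKM in the wild-type I/R libraries and at 1.59 and 1.83 in the knockout I/R libraries. Both knockout libraries lay below both wild-type libraries, with a log2 difference of -0.56 ± 0.10 (SE; adjusted p = 0.0295, limma), which did not pass when any 1 of the 4 I/R libraries was left out (adjusted p = 0.110 to 0.20). Which exons were deleted is not stated in these sources, and whole kidney also holds cells that never express Pax2. Uty, the Y-linked relative of Utx, was at 2.26 and 2.77 FPKM in wild type and 2.71 and 2.77 in knockout (adjusted p = 0.678), and Kdm6b, the related demethylase gene, was at 8.10 and 7.05 against 8.51 and 8.75 (adjusted p = 0.434). Pax2 itself was at 8.08 and 7.55 FPKM in wild type and 11.1 and 11.8 in knockout, a difference of 0.50 that did not pass (adjusted p = 0.119). The 8 libraries held 16780542 to 18497835 reads in genes, and mitochondrial genes took 5.93 and 6.31% of reads in the wild-type I/R libraries and 7.56 and 7.38% in the knockout I/R libraries.

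In the injured knockout kidney, the genes called higher included transporter and enzyme genes of several nephron segments, such as Slc12a3 and Slc34a1, and the genes called lower included genes of the injured epithelium, such as Lcn2, Havcr1 and Krt20. Genes were called where limma on log2(FPKM + 1) gave an adjusted p (Benjamini-Hochberg) under 0.05, and on that scale the folds of low genes are understated. Of the 13304 genes tested 800 were called (6.01%), 371 of them higher in knockout (2.79%) and 429 lower (3.22%), and 110 differed by at least 2-fold (0.827%), 43 higher and 67 lower. The median difference was 0.56 over the genes called higher, -0.62 over those called lower and 0.01 over all genes tested. In every called gene the knockout libraries did not overlap the wild-type libraries, which also held for 7757 of all genes tested (58.3%). The split depends on the scale: rescaled to an equal sum, the knockout libraries had a median shift of -0.08 over all genes, and 226 genes were then called higher and 900 lower. The count also rests on all 4 I/R libraries, each of which is assumed to vary like the rest when it stands alone in its group. It was 78 without wild-type I/R replicate 1, 46 without wild-type I/R replicate 2, 8 without knockout I/R replicate 1 and 10 without knockout I/R replicate 2. It was 443 without wild-type replicate 1, 446 without wild-type replicate 2, 1262 without knockout replicate 1 and 1257 without knockout replicate 2, and all 800 genes kept their sign in each of these fits. Myc, Krt20, Cldn4, S100g, Egf and Pvalb were the 6 genes called in these and all other alternatives in which they were tested, and every other called gene lost its call in at least 1 of them. The list counts below fell with that total: without 1 I/R library, the other lists described had 0 to 5 members called, and 0 to 2 outside those of tubule segments, injury and dedifferentiation and the keratins.

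**Figure D1:**
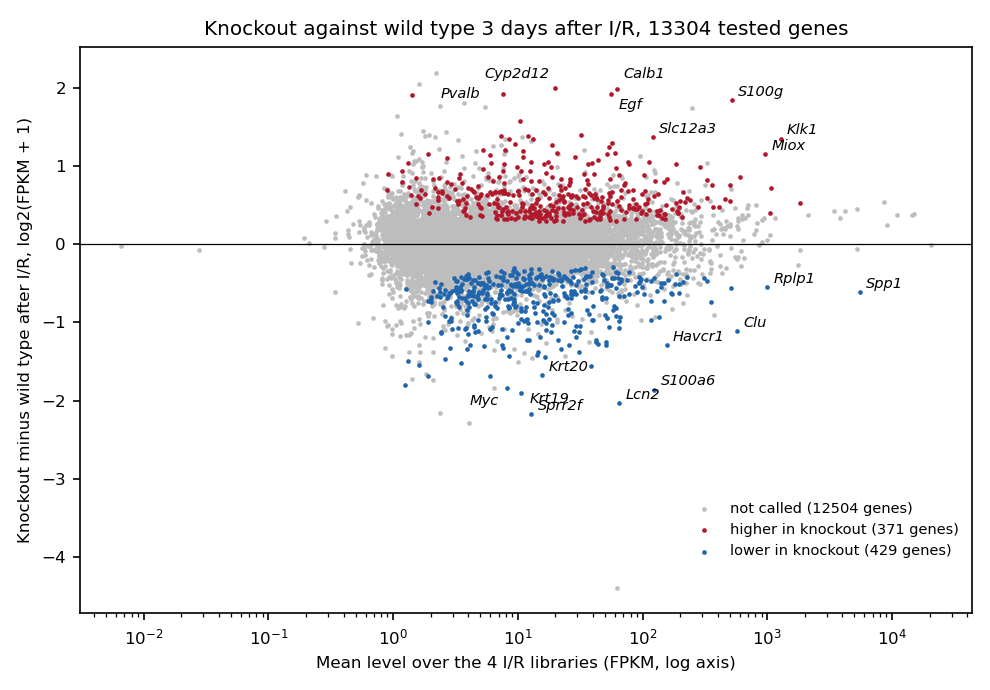
Each point is 1 of the 13304 tested genes, with its mean level over the 4 I/R libraries in FPKM on a log axis and the knockout minus wild-type difference in log2(FPKM + 1) on the other axis. Red points are the 371 genes called higher in knockout, blue points the 429 called lower and grey points those not called. The highest red points include Calb1, Egf, Pvalb and S100g, and the lowest blue points include Sprr2f, Lcn2 and Krt19.

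The distal convoluted and connecting tubule, where sodium chloride, magnesium and calcium are finely adjusted, had the list with the most genes called higher beside amino acid catabolism. Of 17 tested genes of a list for this segment 13 were called higher and 0 lower, and the median difference was 0.97, against 0.01 over all genes. The count was 5 without wild-type I/R replicate 1 or 2 and 2 without knockout I/R replicate 1 or 2. S100g, which encodes the calcium-ferrying protein calbindin-D9k (chromosome X, 162961992 to 162964599), was at 223 and 226 FPKM in the wild-type I/R libraries and at 883 and 743 in the knockout I/R libraries, 3.62-fold higher on FPKM means (log2 difference 1.85 ± 0.11, adjusted p = 0.00288). Calb1, which encodes the related calbindin-D28k, was at 20.6 and 28.7 FPKM in wild type and at 104 and 95.8 in knockout, 4.05-fold higher (1.99 ± 0.16, adjusted p = 0.00811). Pvalb, the parvalbumin gene of the early distal convoluted tubule, was at 2.88 and 2.28 against 14.6 and 10.7 FPKM (1.92 ± 0.15, adjusted p = 0.00811). In these 3 genes of calcium-binding proteins the lowest knockout library stood well above the highest wild-type library.

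Genes of transport and its control were among the 13 called higher. Slc12a3, the gene of the sodium chloride cotransporter that thiazides block, was at 64.9 and 68.1 FPKM in wild type and at 170 and 178 in knockout (1.37 ± 0.20, adjusted p = 0.0198). Slc8a1, the sodium-calcium exchanger gene, was at 6.44 and 7.51 against 18 and 20.5 FPKM (1.34 ± 0.25, adjusted p = 0.0323), and the magnesium channel gene Trpm6 was at 1.37 and 1.72 against 3.25 and 2.79 (0.66, adjusted p = 0.0404). The kinase genes Wnk1 and Wnk4, which control the cotransporter, were higher by 0.98 and 0.57, and Klhl3, which encodes the adaptor that marks WNK kinases for breakdown, was higher by 1.21. Klk1, the tissue kallikrein gene, was at 642 and 805 FPKM in wild type and at 1823 and 1847 in knockout (1.35 ± 0.12, adjusted p = 0.00824). Kl, which encodes klotho, the co-receptor for the phosphate hormone FGF23, was at 40.3 and 41.5 against 82.7 and 79.6 FPKM (0.97 ± 0.12, adjusted p = 0.0126). The calcium channel gene Trpv5, chosen after its values were seen, did not follow: it was at 12.9 and 13.6 FPKM in wild type and at 12.7 and 13.7 in knockout (-0.01, adjusted p = 0.981).

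**Figure D2:**
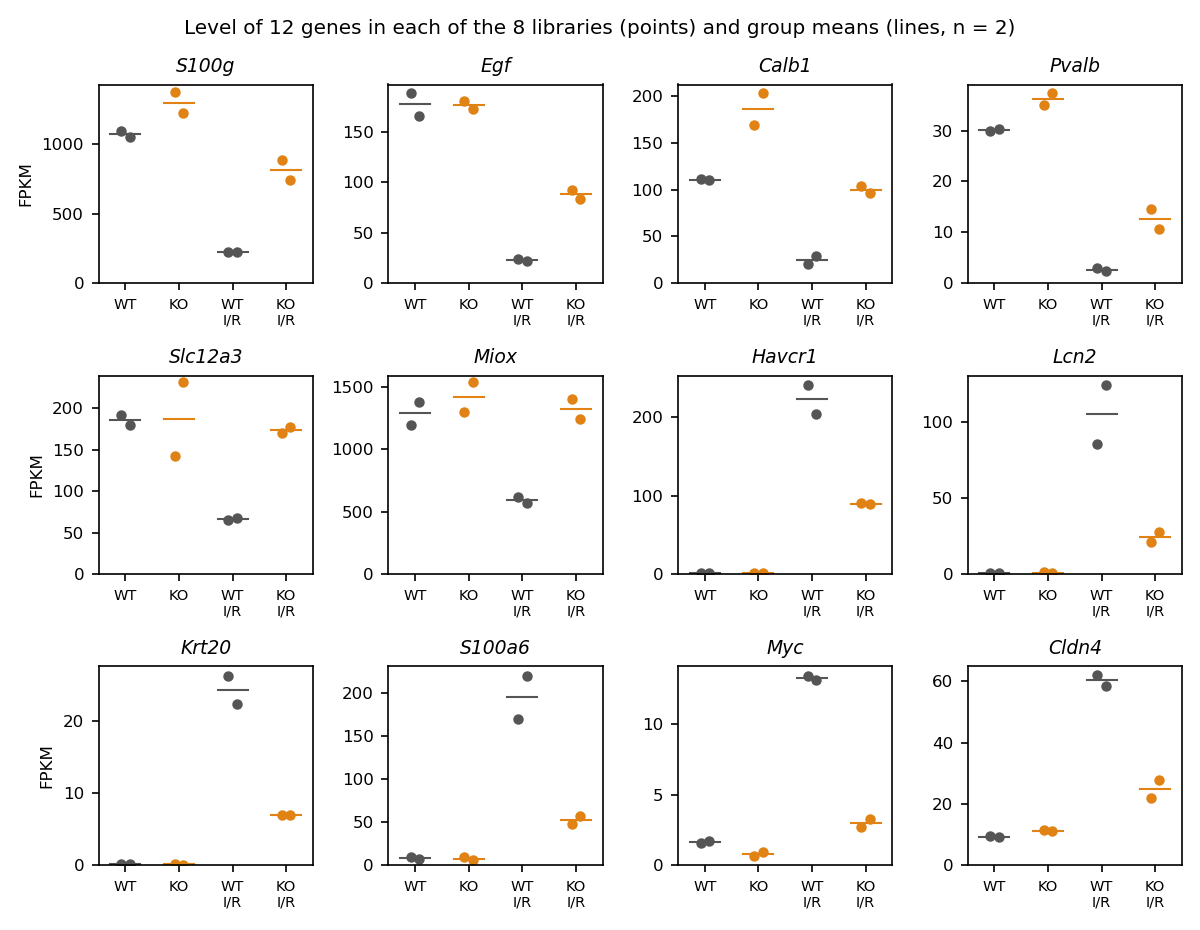
Level in FPKM, on linear axes from 0, of 12 named genes in each of the 8 libraries (points, grey for wild type and orange for knockout), with the mean of each group of 2 as a line. After I/R the knockout libraries of Egf lie at 92.9 and 83.4 FPKM and the wild-type libraries at 23.7 and 21.6, and those of Lcn2 at 21.4 and 27.9 against 85.9 and 124.

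Further lists of the distal nephron were mostly higher or not called. In the thick ascending limb, which reabsorbs salt without water, 6 of 17 tested genes were called higher and 0 lower (median 0.54). Egf, the epidermal growth factor gene of this segment and of the distal convoluted tubule (chromosome 3, 129677565 to 129755316), was at 23.7 and 21.6 FPKM in wild type and at 92.9 and 83.4 in knockout, 3.90-fold higher (1.92 ± 0.10, adjusted p = 0.00288). Tmem52b was at 35.0 and 38.4 against 85.5 and 82.2 FPKM (1.17 ± 0.11, adjusted p = 0.00824), and Kcnj1, the gene of the potassium channel ROMK, at 25.0 and 31.4 against 49.3 and 57.0 (0.90 ± 0.12, adjusted p = 0.0164). The segment's best-known genes, chosen after their values were seen, did not pass: Umod, the uromodulin gene, was at 758 and 918 FPKM in wild type and 1039 and 1061 in knockout (0.33, adjusted p = 0.393), and Slc12a1, the gene of the cotransporter that loop diuretics block, at 87.4 and 84.8 against 128 and 139 (0.63, adjusted p = 0.16).

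Of the genes of intercalated cells, which secrete acid or bicarbonate in the collecting duct, 9 of 17 were called higher and 0 lower (median 0.54). Slc26a4, which encodes the bicarbonate exchanger pendrin, was at 10.4 and 11.5 FPKM in wild type and 23.7 and 23.9 in knockout (1.05 ± 0.09, adjusted p = 0.00824). Insrr, the gene of an alkali-sensing receptor, was at 2.49 and 3.02 against 7.73 and 7.57 FPKM (1.21), and Oxgr1, the oxoglutarate receptor gene, at 2.86 and 3.93 against 8.71 and 8.59 (1.14 ± 0.12, adjusted p = 0.0119). The ammonia transporter gene Rhbg was at 2.58 and 3.96 against 7.57 and 6.92 FPKM (0.97). Slc4a1, the chloride-bicarbonate exchanger gene of the acid-secreting kind, was higher as well (3.44 and 4.19 against 7.32 and 8.07 FPKM, a difference of 0.85). The kinds of intercalated cell were not tested separately. Principal cells, the neighbours that reabsorb water and sodium, differed less evenly: of 11 tested genes 1 was called higher and 1 lower (median 0.12). The sodium channel gene Scnn1a was higher (22.2 and 26.3 against 36.8 and 36.9 FPKM, 0.59, adjusted p = 0.0326), while the water channel gene Aqp2, chosen after its values were seen, was at 118 and 125 against 121 and 114 FPKM (-0.05, adjusted p = 0.935). Of 13 podocyte genes 0 were called higher and 1, the adaptor gene Cd2ap, lower (-0.38), with a list median of 0.35. Over all tested genes 6.01% were called. The summed level of the whole podocyte list of 15 genes was 125 and 119 FPKM in wild type and 161 and 162 in knockout. In whole-kidney RNA, fewer cells of a type and less RNA per cell cannot be told apart, here and for every segment and cell type below.

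In the proximal tubule, the segment most exposed to ischemia, 12 of 39 tested transport genes and 7 of 27 enzyme genes were called higher and 0 of either list lower (medians 0.43 and 0.51). The transport count was 2 and 1 without wild-type I/R replicate 1 and 2, and 0 without either knockout I/R replicate. Slc34a1, the main sodium-phosphate cotransporter gene, was at 856 and 759 FPKM in wild type and at 1368 and 1277 in knockout (0.71 ± 0.13, adjusted p = 0.0309). Slc5a2, which encodes the glucose transporter SGLT2 of the early segment, was at 119 and 106 against 211 and 193 FPKM (0.84 ± 0.16, adjusted p = 0.0351), and Slc22a8, the organic anion transporter gene, at 73.9 and 72.6 against 149 and 156 (1.05 ± 0.14, adjusted p = 0.0167). The fructose transporter gene Slc2a5 was at 9.27 and 6.77 against 17.8 and 17.1 FPKM (1.05). Among the enzyme genes, Miox, of inositol breakdown, was at 618 and 568 FPKM in wild type and 1405 and 1246 in knockout (1.16 ± 0.13, adjusted p = 0.0119). Fbp1, of gluconeogenesis, was at 382 and 362 against 654 and 608 FPKM (0.76 ± 0.08, adjusted p = 0.0119), and Gatm, of creatine synthesis, at 210 and 178 against 392 and 375 (0.98). Dnase1, which encodes a secreted nuclease, was at 17.0 and 16.8 FPKM in wild type and 55.6 and 37.9 in knockout (1.39 ± 0.17, adjusted p = 0.0125). Of 10 genes of megalin and cubilin endocytosis 1, the receptor chaperone gene Lrpap1, was called (0.43), where 6.01% of all tested genes were called. The transcription factor gene Hnf4a, central to proximal tubule identity and chosen after its values were seen, did not pass (0.31, adjusted p = 0.159).

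Metabolic lists held calls in the higher direction, with small differences. Of 36 genes of amino acid catabolism 13 were called higher (median 0.31), of 32 genes of fatty acid oxidation 8 (0.32) and of 24 genes of the tricarboxylic acid cycle 7 (0.33), and 0 in any of these lists were called lower. Uroc1, of histidine breakdown, was at 6.47 and 3.89 FPKM in wild type and 13.5 and 13.8 in knockout (1.28 ± 0.18, adjusted p = 0.0186). Acsm2, which activates medium-chain fatty acids, was at 263 and 271 against 469 and 437 FPKM (0.76 ± 0.09, adjusted p = 0.0122), and Acaa2, of mitochondrial beta-oxidation, at 115 and 94.1 against 158 and 168 (0.64, adjusted p = 0.0275). Sdha, the catalytic subunit gene of succinate dehydrogenase, was at 148 and 140 against 198 and 197 FPKM (0.45 ± 0.07, adjusted p = 0.0233). The nuclear genes of oxidative phosphorylation showed 34 of 34 positive differences, but only 1, Ndufs1 of complex I, was called (0.40, adjusted p = 0.037; list median 0.27). The 13 protein-coding genes of the mitochondrial genome were also all positive, with a median of 0.39 and 0 called. Of 18 tested mitochondrial tRNA genes 4 were called higher and 0 lower (median 0.60). The share of reads from mitochondrial genes, 7.56 and 7.38% in knockout against 5.93 and 6.31% in wild type, moved with these lists, and its part in the result was not tested. Ppargc1a, the gene of the coactivator PGC-1α that drives mitochondrial biogenesis, was at 8.59 and 8.71 FPKM in wild type and 11.6 and 10.9 in knockout (0.34, adjusted p = 0.0404).

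Other groups held single large differences. Of 21 cytochrome P450 genes 5 were called higher and 1, Cyp4a12b, lower (-0.97). Cyp2d12 was at 8.77 and 6.12 FPKM in wild type and at 35.3 and 29.3 in knockout (1.99 ± 0.22, adjusted p = 0.0119), and Ugt2b37, a glucuronosyltransferase gene, at 30.4 and 34.9 against 88.6 and 74.6 (1.29 ± 0.12, adjusted p = 0.00824). Reads of Cyp2d12, Cyp4a12b and Ugt2b37 may be shared with close relatives, so these values are uncertain. Inmt, an indolethylamine methyltransferase gene, was at 36.6 and 26.3 against 87.4 and 64.3 FPKM (1.25 ± 0.20, adjusted p = 0.0226), Ces1e, a carboxylesterase gene, at 10.6 and 10.6 against 29.6 and 24.4 (1.26), and Abca13, a lipid transporter gene, at 4.06 and 3.17 against 11.3 and 10.7 (1.39 ± 0.11, adjusted p = 0.00811). Of 14 circadian clock genes 5 were called higher (median 0.27), among them the clock output genes Dbp (11.1 and 11.9 against 18.9 and 16.4 FPKM, 0.58), Hlf (0.57) and Ciart (0.84) and the clock repressor gene Nr1d1 (0.46). The time of day at which kidneys were taken is not given in the labels.

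**Figure D3:**
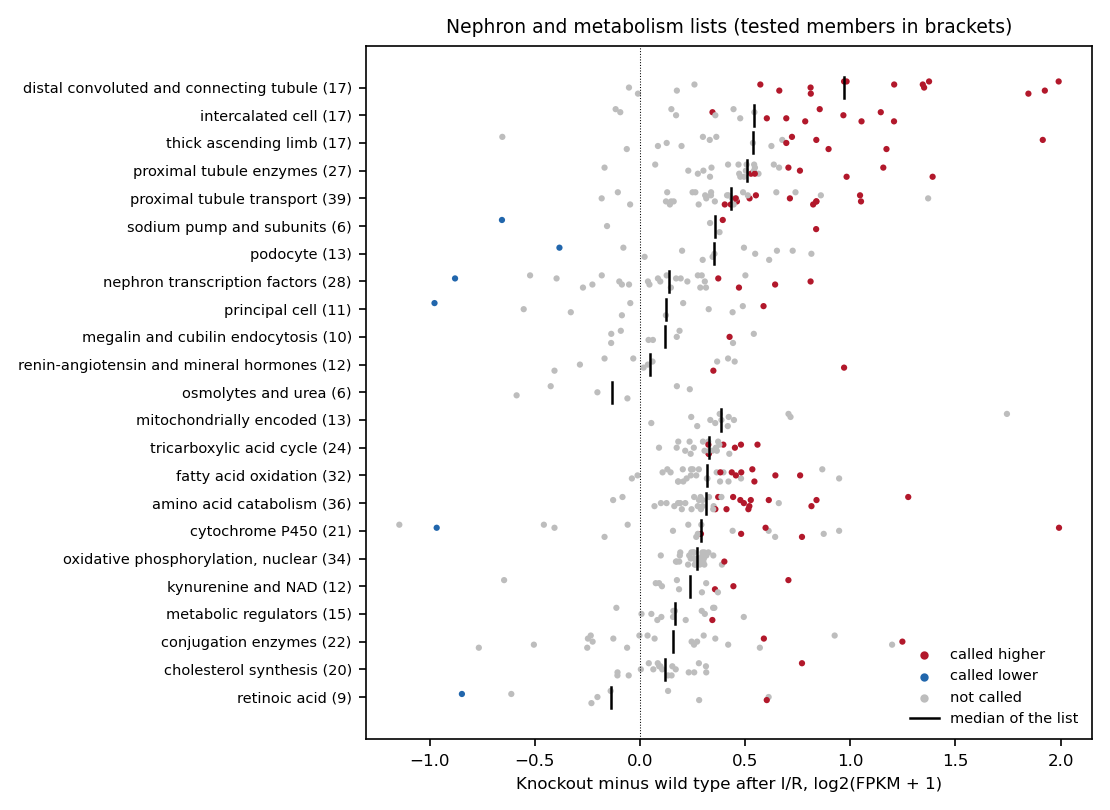
Knockout minus wild-type difference after I/R, in log2(FPKM + 1), of every tested member of the lists of nephron segments and metabolism, 1 row per list, with called members coloured and the list median marked. The distal convoluted and connecting tubule list stands at a median of 0.97 with 13 of 17 members called higher, and the nuclear oxidative phosphorylation list at 0.27 with 1 of 34.

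Of 14 tested markers of tubular injury 8 were called lower in the knockout kidney and 0 higher, with a median of -0.83. The count was 4 and 2 without wild-type I/R replicate 1 and 2, and 0 without either knockout I/R replicate. Lcn2, which encodes the iron-siderophore-binding protein NGAL (chromosome 2, 32384633 to 32388252), was at 85.9 and 124 FPKM in the wild-type I/R libraries and at 21.4 and 27.9 in the knockout I/R libraries, 4.27-fold lower. Havcr1, which encodes the phagocytic receptor KIM-1, was at 241 and 204 against 90.2 and 89.6 FPKM, 2.48-fold lower. Both groups were far apart in each of these genes (adjusted p = 0.0119 and 0.00824). Outside that list, Krt20, a keratin gene that rises in injured tubules, was at 26.3 and 22.3 FPKM in wild type and 6.91 and 6.93 in knockout, 3.51-fold lower (-1.67 ± 0.10, adjusted p = 0.00288). Gdf15, a stress-induced cytokine gene also outside the list, was at 41.6 and 49.2 against 17.3 and 16.3 FPKM (-1.38 ± 0.13, adjusted p = 0.00824). Among the markers, Clu, the clusterin gene of a secreted chaperone, was at 718 and 836 against 369 and 348 FPKM, 2.17-fold lower (-1.11 ± 0.12, adjusted p = 0.0119). Spp1, the osteopontin gene, was the called gene with the highest level, at 6841 and 6579 FPKM in wild type and 4219 and 4563 in knockout (-0.61 ± 0.11, adjusted p = 0.028). Timp1, the metalloproteinase inhibitor gene, was at 34.7 and 45.6 against 18.1 and 19.6 FPKM (-1.04 ± 0.16, adjusted p = 0.0201). Ctsd, the lysosomal protease gene that was among the called genes with the highest levels, was at 410 and 481 against 266 and 267 FPKM (-0.74 ± 0.10, adjusted p = 0.0156).

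A list of the dedifferentiated, partly repaired epithelium held 9 of 16 genes called lower and 0 higher (median -0.83). Sox9, the transcription factor gene of repairing tubules, was at 7.72 and 5.54 FPKM in wild type and 1.97 and 3.03 in knockout (-1.13 ± 0.24, adjusted p = 0.0456). Akap12, a scaffold protein gene, was at 19.9 and 22.7 against 7.66 and 6.98 FPKM (-1.42 ± 0.14, adjusted p = 0.00929). Keratins of simple epithelia, which build intermediate filaments, were lower in 5 of 6 tested genes (median -1.25). Krt19 was at 17.8 and 17.0 FPKM in wild type and 3.91 and 3.93 in knockout (-1.90 ± 0.28, adjusted p = 0.0191), Krt18 at 51.7 and 65.0 against 17.9 and 20.2 (-1.56 ± 0.13, adjusted p = 0.00824) and its partner Krt8 at 175 and 179 against 89.0 and 94.9 (-0.93 ± 0.09, adjusted p = 0.00929). S100a6, a calcium-binding protein gene of proliferating epithelium, was at 170 and 220 FPKM in wild type and 47.9 and 57.6 in knockout, 3.70-fold lower (-1.86 ± 0.24, adjusted p = 0.0148), and S100a10, the partner of annexin A2, at 158 and 151 against 74.2 and 82.4 (-0.97 ± 0.11). Anxa2 was at 66.9 and 78.0 against 28.3 and 31.4 FPKM (-1.25 ± 0.19), and 4 of 10 annexin genes were called lower in all. Within the S100 family the direction was not shared, since S100g was higher and S100a6, S100a10 and S100a16 were lower.

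Cell contact genes were lower in part. Of 17 claudin and tight junction genes 6 were called lower and 0 higher, with a median of only -0.09. Cldn4 was at 62.2 and 58.6 FPKM in wild type and 22 and 27.8 in knockout, 2.43-fold lower (-1.25 ± 0.11, adjusted p = 0.00824), Cldn3 at 22 and 24.2 against 9.31 and 11.3 (-1.10) and Cldn1 at 16.9 and 16.2 against 8.44 and 7.08 (-1.01). Of 27 cytoskeleton genes 10 were called lower, among them Actn1 (-0.73) and Tubb6 (-0.63). Of the largest decreases 3 were in genes of surface epithelia: Sprr2f, of the small proline-rich proteins, was at 24.8 and 18.3 against 4.93 and 3.13 FPKM (-2.17 ± 0.20, uncertain because its family is near identical), Msln, the mesothelin gene, at 2.79 and 4.04 against 0.429 and 0.292 (-1.69), and Gprc5a, a receptor gene, at 7.90 and 11.3 against 1.79 and 2.80 (-1.68 ± 0.35, adjusted p = 0.042). The summed level of 9 urothelial markers, 6 of them tested, was 35.9 and 16.4 FPKM in wild type I/R and 6.67 and 6.52 in knockout I/R, 0 of 6 were called and none of the 9 was at 0 in every library. Without I/R the sum was 18.4 and 7.35 FPKM in wild type and 24.1 and 10.7 in knockout. Its part in the differences of these 3 genes and of the keratins was not tested.

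Some signalling and transcription factor genes that respond to injury were called lower as well. Myc, the growth-promoting transcription factor gene (chromosome 15, 61985391 to 61990374), was at 13.5 and 13.2 FPKM in the wild-type I/R libraries and 2.73 and 3.31 in the knockout I/R libraries, 4.42-fold lower (-1.84 ± 0.11, adjusted p = 0.00288). Of 20 immediate early factor genes, which switch on within minutes of a stimulus, 8 were called lower and 0 higher (median -0.78). Egr2 was at 6.09 and 3.06 FPKM in wild type and 1.05 and 1.22 in knockout (-1.33 ± 0.25, adjusted p = 0.0351), and the AP-1 subunit gene Junb at 38.1 and 36.2 against 15.7 and 13.5 (-1.29 ± 0.17, adjusted p = 0.0162). Fos was at 4.61 and 4.12 against 1.32 and 1.74 FPKM (-1.09 ± 0.21), and Fosl1 at 4.04 and 4.31 against 1.56 and 1.68 (-0.98). Egr1, chosen after its values were seen, had an even larger difference (-1.51) that did not pass (adjusted p = 0.0799), since its wild-type libraries were at 21.8 and 9.62 FPKM.

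Among inflammatory and stress pathways, those of STAT3, NF-κB, TGF-β, YAP and ATF4 had 5 or 6 members called lower each. Lists can share genes with each other, so these counts are not separate results. In the STAT3 and SOCS list 6 of 13 were lower (median -0.55), among them Socs3, the feedback inhibitor gene (15.2 and 18.6 against 7.17 and 6.10 FPKM, -1.22 ± 0.26, adjusted p = 0.0443), and Stat3 itself (21.5 and 22.3 against 15.7 and 16.1 FPKM, -0.43). In the NF-κB list 5 of 13 were lower (median -0.47), among them Bcl3 (-1.01), Nfkbiz (10.4 and 10.7 against 6.22 and 5.97 FPKM, -0.70 ± 0.08) and the subunit gene Relb (-0.61). Tnfrsf12a, the receptor gene for the cytokine TWEAK, was at 73.6 and 70.6 FPKM in wild type and 29.9 and 28.1 in knockout (-1.28 ± 0.10, adjusted p = 0.00811). Of 15 genes of TGF-β and profibrotic signals 5 were lower (median -0.39), including Tgfbi (16.6 and 22.4 against 9.3 and 9.03 FPKM, -1.0). Of 12 genes of YAP, TEAD and their targets 5 were lower (median -0.38), including Ctgf (27.3 and 37.8 against 18.3 and 17.2 FPKM, -0.83) and Ajuba (-0.71), while Yap1 itself, chosen after its values were seen, differed by -0.05. Of 14 genes of the amino acid response driven by ATF4, 6 were lower: Phgdh, of serine synthesis, was at 23.2 and 25.7 against 7.47 and 9.23 FPKM (-1.45 ± 0.13, adjusted p = 0.00824) and Asns, the asparagine synthetase gene, at 6.16 and 6.53 against 2.53 and 2.65 (-1.03 ± 0.09). Hmox1 was the 1 of 16 NRF2 target genes called (-0.69), a share near the 6.01% called over all tested genes. Of 11 Notch pathway genes 0 were called (median -0.20). In the EGF family the ligand genes split: Egf was higher, whereas Hbegf (20.7 and 20.7 against 11.5 and 11.8 FPKM, -0.78 ± 0.13) and Nrg1 (4.07 and 3.46 against 2.06 and 2.20 FPKM, -0.60) were lower.

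Over the 749 tested genes that the authors' table assigns to a transcription factor family, 11 were called higher and 28 lower, with a median of -0.01. Over all tested genes 2.79% were called higher and 3.22% lower, and no result about transcription factors as a group is drawn from these counts. The factors called higher included the homeobox genes Emx1 (10.9 and 9.86 against 19.3 and 18.7 FPKM, 0.81 ± 0.07, adjusted p = 0.00824), Lhx1 (4.51 and 4.78 against 8.40 and 7.25 FPKM, 0.64) and Hoxd8 (0.47), of which Lhx1 is needed for nephron formation. Among 35 factors of the bZIP family 3, all of the clock output kind (Dbp, Hlf and Tef), were called higher and 6 lower (Fos, Junb, Jun, Fosl1, Fosl2 and Maff). Klf6, a zinc finger factor gene, was at 36.0 and 33.9 against 18.7 and 18.4 FPKM (-0.88 ± 0.10, adjusted p = 0.0119).

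**Figure D4:**
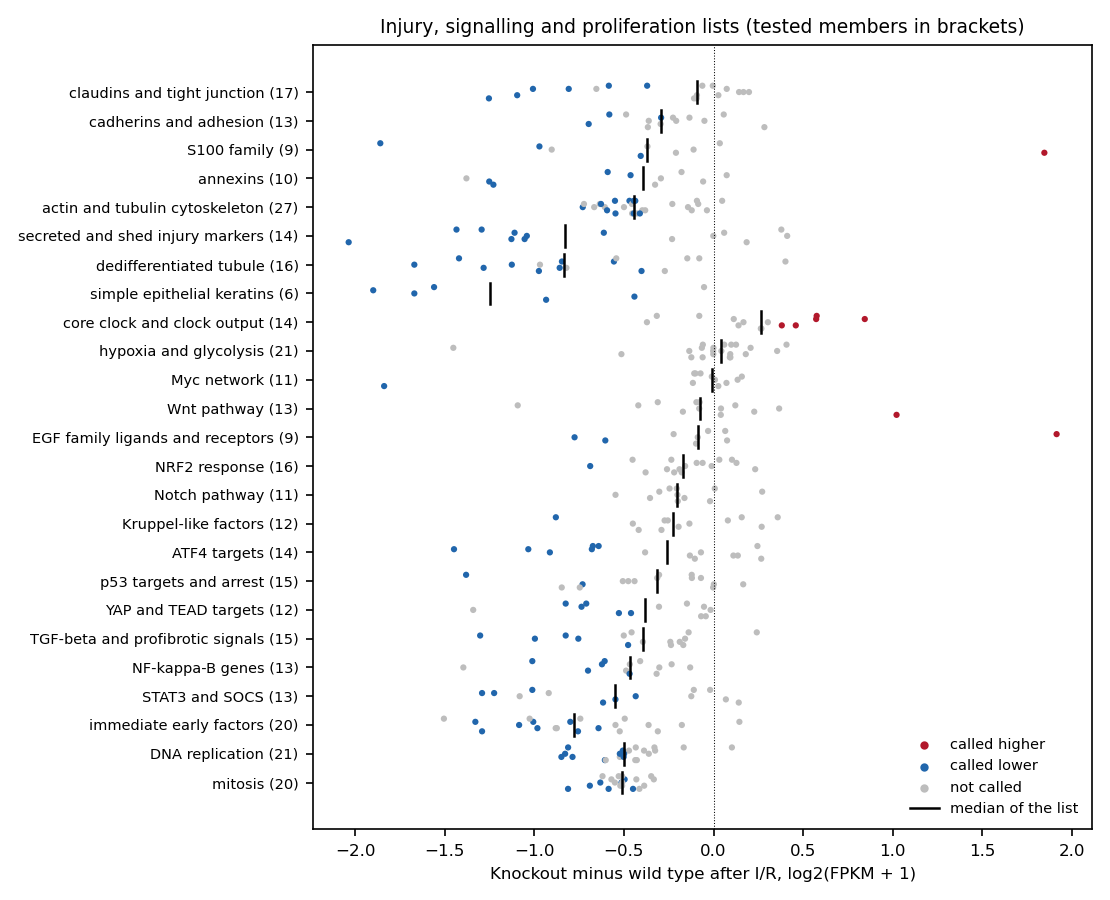
Knockout minus wild-type difference after I/R, in log2(FPKM + 1), of every tested member of the lists of injury, epithelial, signalling and cell cycle genes, 1 row per list, with called members coloured and the list median marked. Keratins stand at a median of -1.25, injury markers at -0.83 and the Myc network at -0.01, where Myc alone is called.

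Promoters of the tested genes were searched for short DNA motifs. RefSeq promoters of build GRCm38.p6 matched 9030 of 11451 tested protein-coding genes, and the 250 bases before each start were searched on both strands. The AP-1 motif TGANTCA was found in 4.11% of all these promoters, in 25 of 310 promoters of genes called lower (8.06%) and in 11 of 275 of genes called higher (4.0%). The motif GTTAAT was found in 4.12% of all, in 24 of 275 of genes called higher (8.73%) and in 12 of 310 of genes called lower (3.87%). A match describes letters and not a bound site. The TEAD motif CATTCC was in 10.4% of all promoters, 15.8% of those of genes called lower and 10.9% of those of genes called higher. The nuclear receptor arm AGGTCA was in 10.7% of all, 17.5% of higher and 15.2% of lower. The GC box GGGCGG was in 5421 of all 9030 promoters, 48.0% of higher and 69.0% of lower. Shares of the E-box CACGTG were 8.59% of all, 9.45% of higher and 7.42% of lower. Those of the EGR motif GCGTGGG were 7.01, 5.82 and 7.42%. Further motifs that were searched, among them the TATA and CCAAT boxes, are not given here. Shown first, with AP-1 matches in capitals, are 3 genes lower in knockout: the urokinase receptor gene Plaur (chr7:24462233-24462482, plus strand; 13.2 and 12.4 FPKM in wild type against 4 and 4.18 in knockout), Cldn4 (chr5:134946935-134947184, minus strand) and the tissue factor gene F3 (chr3:121723287-121723536, plus strand; 21.6 and 23.5 against 13.6 and 12.7 FPKM). They were chosen as examples after values and matches were seen.
Plaur: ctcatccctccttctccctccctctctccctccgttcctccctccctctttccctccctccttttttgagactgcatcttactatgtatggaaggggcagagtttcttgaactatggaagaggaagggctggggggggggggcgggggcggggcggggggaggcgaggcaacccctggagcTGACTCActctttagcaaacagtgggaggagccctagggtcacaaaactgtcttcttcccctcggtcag
Cldn4: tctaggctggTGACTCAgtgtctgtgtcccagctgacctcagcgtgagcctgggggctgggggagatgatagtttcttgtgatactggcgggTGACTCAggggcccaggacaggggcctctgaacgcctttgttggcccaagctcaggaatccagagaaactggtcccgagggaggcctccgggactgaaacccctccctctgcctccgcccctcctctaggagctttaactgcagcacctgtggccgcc
F3: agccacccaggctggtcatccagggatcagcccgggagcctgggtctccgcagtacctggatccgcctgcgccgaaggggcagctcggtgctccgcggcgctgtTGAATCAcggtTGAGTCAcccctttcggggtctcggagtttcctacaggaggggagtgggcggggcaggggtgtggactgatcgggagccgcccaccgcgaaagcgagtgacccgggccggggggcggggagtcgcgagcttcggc

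Shown next, with GTTAAT or its reverse complement in capitals, are the promoters of 3 genes higher in knockout, the transporter genes Slc34a1 (chr13:55399398-55399647, plus strand) and Slc22a8 (chr19:8592932-8593181, plus strand) and Acsm2 (chr7:119554090-119554339, plus strand), chosen in the same way.
Slc34a1: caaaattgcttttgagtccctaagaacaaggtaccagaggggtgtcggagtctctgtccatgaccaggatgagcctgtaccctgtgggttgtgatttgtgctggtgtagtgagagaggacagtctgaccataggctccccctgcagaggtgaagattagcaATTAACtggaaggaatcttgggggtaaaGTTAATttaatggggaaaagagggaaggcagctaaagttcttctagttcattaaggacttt
Slc22a8: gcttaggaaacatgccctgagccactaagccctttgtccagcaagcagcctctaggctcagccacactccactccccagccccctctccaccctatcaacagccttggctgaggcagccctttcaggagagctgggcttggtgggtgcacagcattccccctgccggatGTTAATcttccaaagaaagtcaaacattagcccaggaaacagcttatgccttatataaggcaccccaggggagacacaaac
Acsm2: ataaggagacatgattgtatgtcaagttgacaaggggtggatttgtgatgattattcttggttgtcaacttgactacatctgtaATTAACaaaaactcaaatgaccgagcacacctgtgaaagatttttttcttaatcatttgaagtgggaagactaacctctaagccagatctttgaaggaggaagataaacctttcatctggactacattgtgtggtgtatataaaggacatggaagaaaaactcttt
The match nearest the start lay 69 bases before it in Plaur, 158 in Cldn4, 135 in F3, 61 in Slc34a1, 81 in Slc22a8 and 166 in Acsm2.

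Among genes of growth and division a minority was called lower in the knockout kidney. Of 20 mitosis genes 7 were called lower (median -0.51, 20 of 20 negative), and of 21 DNA replication genes 9 (median -0.50). Rrm2, which makes deoxynucleotides, was at 19.0 and 22.8 FPKM in wild type and 9.89 and 12.4 in knockout (-0.85 ± 0.14, adjusted p = 0.0228). The replication helicase gene Mcm5 was at 11 and 10.9 against 4.92 and 6.83 FPKM (-0.81 ± 0.13), Ube2c, of mitotic exit, at 8.08 and 9.64 against 4.07 and 5.18 (-0.81 ± 0.15) and Cdk1, the mitotic kinase gene, at 4.47 and 5.32 against 2.62 and 2.67 (-0.69). Mki67, chosen after its values were seen, was at 7.03 and 8.29 against 4.49 and 5.70 FPKM and did not pass (-0.51, adjusted p = 0.0888). With a pseudocount of 0.1 in place of 1, 0 of the mitosis genes were called. All 35 ribosomal protein genes tested were negative and 9 were called lower (median -0.38), including Rplp1 (1179 and 1179 against 831 and 779 FPKM, -0.55 ± 0.11, adjusted p = 0.0401), Rplp0 (586 and 630 against 421 and 405 FPKM, -0.56) and Rpl3 (148 and 144 against 90.8 and 84.7 FPKM, -0.73). Reads of ribosomal protein genes can be shared with their pseudogenes, and the count was 32 with libraries rescaled to an equal sum and 0 with no filter on low values. Of 25 ribosome biogenesis genes 6 were lower, among them the nucleolar genes Npm1 (82.1 and 91.4 against 56.5 and 52.1 FPKM, -0.66) and Nop58 (-0.62).

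A minority of matrix genes was called lower, and fibroblast markers were not called. Of 21 collagen genes 4 were called lower (median -0.45), led by Col6a2 (11.7 and 12.3 against 6.55 and 6.98 FPKM, -0.74 ± 0.09, adjusted p = 0.0126) and Col6a1 (30.1 and 29.8 against 18.5 and 18.5 FPKM, -0.67). The fibrillar collagen gene Col1a1, chosen after its values were seen, was at 60.9 and 78.0 against 38.7 and 51.6 FPKM and did not pass (-0.61, adjusted p = 0.107). Of 17 genes of matrix proteases and their inhibitors 6 were lower, including the metalloproteinase gene Adam8 (3.63 and 3.72 against 1.23 and 1.06 FPKM, -1.12) and the plasminogen activator gene Plat (19.1 and 23.6 against 9.52 and 11.2 FPKM, -0.98). The 12 fibroblast markers had 0 calls and a median of -0.09, and the summed level of the whole list, 16 genes with those below 1 FPKM, was 388 and 427 FPKM in wild type and 278 and 286 in knockout. The part of that sum in the collagen result was not tested.

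Among immune genes, secreted factors and a few cell markers were lower. Of 17 genes of chemokines and their receptors 3 were called lower. They included Ccl9, at 5.13 and 7.05 FPKM in wild type and 2.05 and 1.51 in knockout (-1.34). Ccl6 was another, at 9.14 and 12 against 5.18 and 3.75 FPKM (-1.08). Outside that list, the chemokine gene Ccl20 was at 5.36 and 6.02 FPKM in wild type and 1.32 and 1.34 in knockout (-1.52 ± 0.12, adjusted p = 0.00811). Of 17 cytokine and receptor genes 4 were lower, with Il34 (44.2 and 40.7 against 18.3 and 19.4 FPKM, -1.13 ± 0.11) and Csf1 (13.2 and 14.3 against 7.38 and 7.39 FPKM, -0.81), which encode the ligands of the macrophage growth factor receptor. Of 14 macrophage markers 2 were lower, Cd14 (26.5 and 24.6 against 10.2 and 12.2 FPKM, -1.12 ± 0.16) and Plac8 (-0.69), and the summed level of the whole list of 19 genes was 737 and 689 FPKM in wild type and 536 and 440 in knockout. The part of that sum in the chemokine and cytokine results was not tested. Of 20 complement and coagulation genes 5 were lower, including the 3 fibrinogen chain genes Fgg (62.0 and 62.9 against 25.1 and 25.1 FPKM, -1.28 ± 0.15), Fga (61.6 and 58.8 against 24.2 and 26.1 FPKM, -1.23) and Fgb (7.85 and 4.97 against 2.45 and 2.55 FPKM, -1.05). Of 14 antigen presentation genes 13 had positive differences (list median 0.41), but only 1 was called, a share near the 6.01% called over all tested genes. It was H2-DMb1, which helps load class II molecules (22.6 and 19.8 against 34.7 and 31.9 FPKM, 0.63 ± 0.09, called higher). Of 22 interferon response genes 0 were called (median -0.03), and 0 were called among the tested markers of neutrophils, of T and NK cells, of B cells and of red blood cells. Of 17 endothelial genes 1, the VEGF receptor gene Kdr, was called higher (4.96 and 5.92 against 9.44 and 9.21 FPKM, 0.68). That share, too, is near the 6.01% called over all tested genes.

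Several programmes had few or no calls. Of 21 hypoxia and glycolysis genes, 22 heat shock and unfolded protein response genes and 30 proteasome genes, 0 were called, with medians of 0.04, 0.01 and -0.03. Chromatin genes were close to the whole in their medians: of 11 genes of UTX and its COMPASS partners 1, Kdm6a, was called lower (median 0.01), of 10 PRC2 genes 0 (median -0.06) and of 30 other chromatin enzyme genes 2 (median 0.002). Of 24 Hox genes 1 was called higher, Hoxd8, and 1 lower, Hoxb8 (-0.32). Over all tested genes 6.01% were called.

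The same comparison without I/R shares no library with the one above, only the estimate of each gene's spread, and it called 1 gene of 13304 (0.00752%), the processed pseudogene Gm11702, which was listed at 0 in both knockout libraries without I/R. By limma 1233 genes had an unadjusted p under 0.05, and limma-voom on recovered reads called 0. Of the 371 genes called higher after I/R 241 had a positive difference without it (65.0%), and of the 429 called lower 211 had a negative one (49.2%), where 54.5% of all tested genes were positive. The medians without I/R were 0.06 and 0.003. The absolute difference was larger after I/R in 369 of the 371 and 427 of the 429, which the choice of called genes partly sets. Without I/R, Egf was at 189 and 166 FPKM in wild type and at 181 and 173 in knockout kidney, so that the groups overlapped there. Myc was at 1.57 and 1.68 against 0.662 and 0.921 FPKM without I/R, a difference of -0.56 in the direction seen after it, and Calb1 was at 111 and 110 against 169 and 203 (0.74, adjusted p = 0.393).

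The difference between the genotype effects was tested as an interaction, which uses all 8 libraries and therefore the I/R libraries again. It called 38 genes (0.286%), 10 positive (0.0752%) and 28 negative (0.21%), and 37 of them were among the 800, 8 of those called higher and 29 of those called lower. They included Egf (1.92), Pvalb (1.67), S100g (1.57), Krt18 (-1.87), Krt20 (-1.68), Cldn4 (-1.51), Havcr1 (-1.50) and Myc (-1.28). For Lcn2, Calb1 and Slc12a3 the interaction was not called.

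**Figure D5:**
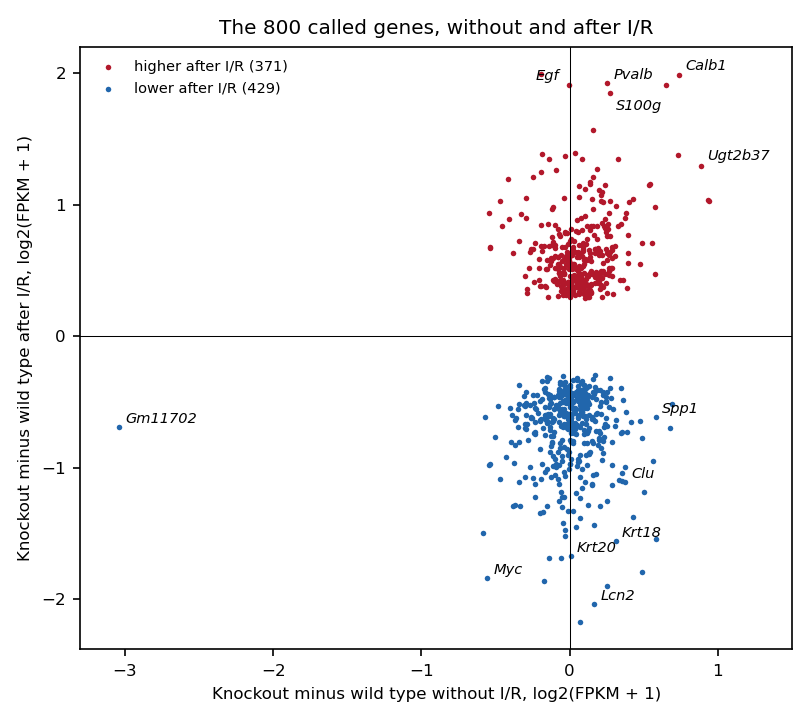
Each point is 1 of the 800 called genes, with its knockout minus wild-type difference without I/R on the horizontal axis and after I/R on the vertical axis, both in log2(FPKM + 1). The 371 genes called higher (red) have a median of 0.06 without I/R and the 429 called lower (blue) one of 0.003, and Gm11702 lies apart at the left.

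The I/R effects in each genotype share the 4 I/R libraries with the knockout comparison, so they are given side by side without a test of their relation. I/R called 4992 genes in wild type (37.5%) and 2748 in knockout (20.7%). The median of the distal convoluted and connecting tubule list differed by -1.30 after I/R in wild type and by -0.30 in knockout, that of the intercalated cell list by -0.95 and -0.16 and that of the thick ascending limb list by -0.82 and -0.31. Slc12a3 fell by 1.47 on the log2 scale in wild type (adjusted p = 0.0017) and was at -0.06 in knockout (adjusted p = 0.857), and Egf fell by 2.92 in wild type and by 1.0 in knockout. The injury marker list had a median of 1.90 in wild type and 0.97 in knockout, the keratins 2.0 and 0.51, the proximal tubule transport list -0.83 and -0.39 and the mitosis list 2.20 and 1.63. Krt19 rose by 2.79 in wild type and was at 0.64 in knockout (adjusted p = 0.147). Cldn4 rose by 2.59 in wild type and 1.08 in knockout, Clu by 2.95 and 1.47 and Spp1 by 4.17 and 2.97, so these genes rose in both genotypes.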

How the data were processed

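Expression was measured by poly-A selected RNA sequencing in 8 whole-kidney libraries, 4 groups of 2. The authors deposited FPKM per gene for each library, with gene coordinates and lengths. The submitters' processing notes name DESeq2 1.20.0, featureCounts 1.5.0-p3 and build GRCm39. The sources used here do not name the aligner, the strandedness of the counting or the FPKM scaling. Reads of overlapping antisense genes therefore cannot be told apart. The coordinates were identical to a GRCm38 annotation for 53499 of 54409 genes matched by identifier, and are printed as those of GRCm38. Recovered whole reads (100% of values within 0.05 reads) gave 16780542 to 18497835 reads per library, and 3 reads, the limit that a count of 0 allows, correspond to 0.154 to 0.208 FPKM for a gene of 1 kb. Such limits cover counting error only.

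Deposited FPKM values were turned into log2(FPKM + 1), and genes averaging 1 FPKM or more were tested with limma 3.58.1 (R 4.3.3; package data.table, version 1.17.8), with 1 mean per group over the 4 groups, a mean-variance trend, two-sided tests and Benjamini-Hochberg adjustment over 13304 genes. Folds were taken on FPKM means. "Higher" and "lower" are used of called genes. Within each group the replicates differed beyond sampling noise, so no pair was merged. The labels state no pairing, and deviations of same-numbered samples correlated at -0.083 to 0.161, so no pairing was used.

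The members and the 80 gene lists (1494 entries, of which 1492 were found and 1291 tested) were chosen with earlier results of these data known. Lists are described by counts and medians, with no test, and some genes are in more than 1 list. Genes named are the 15 protein-coding genes, called and without overlap, that differed most in each direction, the 5 called with the highest level in each direction, up to 4 called members per list (or up to 2 by level where none was called), and the label checks. Other genes, those picked for the promoter sequences and Gm11702 included, were chosen after their values were seen. Some genes that the rule selects are not reported here. Alternatives were another pseudocount, 2 other filters, a fit on the compared libraries, no trend, equal-sum scaling, limma-voom on recovered reads, a replicate block and leaving out each library. The fit was tested on simulated data.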

Additional observations from a re-analysis of the deposited data

Results flagged for a closer look

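Results are given here where the genotype difference after I/R differed from that without I/R by the interaction test in limma (log2 difference after I/R minus that without, adjusted p between 0.0261 and 0.0487 over these genes). Only genes that the naming rule selects are listed, and the interaction called others as well. The positive ones listed, for which knockout minus wild type was greater after I/R, were Cd8a at 1.98, Egf at 1.92, Pvalb at 1.67, S100g at 1.57, Abca13 at 1.57, Slc26a4 at 1.35 and Atp4a at 1.30. Cd8a, the T-cell co-receptor gene, was not called in either comparison by itself. Its wild-type libraries without I/R were at 2.52 and 2.99 FPKM, against 0.590 and 0.285 for knockout. After I/R it was at 0.871 and 1.22 against 1.99 and 2.14 (0.59, adjusted p = 0.0744). Cd8b1, another T-cell gene, lay below the filter and did not share this pattern. Its levels were 1.84 and 0.167 against 0.140 and 0.247 FPKM without I/R, and 0.562 and 0.174 against 0.344 and 0.114 after it. Cd3e, also below the filter, was lower in knockout without I/R, at 0.0509 and 0.0598 FPKM against an uneven 0.686 and 0.121. Whether T cells differed between the genotypes was not tested.

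Among injury, keratin and cell surface genes the interaction was -1.87 for Krt18, -1.68 for Krt20, -0.99 for Krt8, -1.51 for Cldn4, -1.50 for Havcr1, -1.48 for Clu, -1.45 for Gdf15, -1.19 for Spp1, -1.30 for Anxa3 and -2.24 for Sprr2f, whose reads may be shared within its family. Among signalling and metabolic genes it was -1.49 for Phgdh, -1.49 for Ccl20, -1.41 for Tnfrsf12a, -1.28 for Myc, -1.28 for Il34, -1.12 for Plk2, -1.08 for F3, -0.99 for Asns and -0.83 for Nfkbiz.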

How the results depend on the processing

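All 800 genes called after I/R kept their sign under every alternative in which they were tested. The count of 800 became 305 with no filter on low values (128 higher, 177 lower), 1503 with limma-voom on recovered reads (686 higher, 817 lower) and 461 with the replicate block (207 higher, 254 lower), of which 219, 773 and 436 were among the 800. The numbers are not known to pair the samples, so a call lost under the block is not a weaker effect. With equal-sum scaling 226 were higher and 900 lower. Leaving out each library in turn gave 8 to 1262 genes, 3 to 629 higher and 5 to 633 lower; without an I/R library a group has 1 sample. Myc, Krt20, Cldn4, S100g, Egf and Pvalb were called under every alternative in which they were tested, and 192 genes under all 8 that keep every library.

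Without I/R the count of 1 became 2 with a pseudocount of 0.1, 10 with no filter, 0 with only the compared libraries, 0 with limma-voom, and 1 to 6 leaving out each library. The interaction count of 38 became 14 with a pseudocount of 0.1, 96 with a minimum mean of 5 FPKM, 61 with equal-sum scaling, 175 with limma-voom, 9 with the replicate block, and 0 to 206 leaving out each library. Kdm6a did not pass with no filter (-0.56, adjusted p = 0.0747), and leaving out each I/R library gave -0.62 to -0.50 (adjusted p = 0.110 to 0.20). Equal-sum scaling turned the sign of 7 list medians, all near 0: the lists of renin-angiotensin and mineral hormones, hypoxia, heat shock, lysosome, UTX partners, other chromatin enzymes and Hox genes. The cause of these shifts was not tested. With 2 samples a group, only differences large against the spread could pass.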

Other observations

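Some further genes stood out after their values were seen. Gm13394, a processed pseudogene on chromosome 2, had the most negative difference of all tested genes (-4.39 ± 1.71, adjusted p = 0.177), with means of 120 FPKM in wild type I/R and 3.95 in knockout I/R. Gapdh, the glycolytic gene often used as a reference, was listed at 41.3, 3.04, 4.19 and 3.39 FPKM in wild-type I/R replicates 1 and 2 and knockout I/R replicates 1 and 2 (-1.45, adjusted p = 0.453), so a single library set its mean. Reads of both may be shared with near-identical copies.

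Besides H2-DMb1, which was called higher, 2 genes of class II antigen presentation had positive differences that did not pass. The invariant chain gene Cd74 was at 278 and 160 FPKM in wild type I/R and 468 and 400 in knockout I/R (1.03, adjusted p = 0.0759), and H2-Ab1 differed by 0.91 (adjusted p = 0.0971). Genes not coding for protein were called as well: 8 higher and 1 lower of 217 antisense genes, 5 higher and 0 lower of 218 lincRNA genes, and 3 higher and 11 lower of 553 processed pseudogenes. Each of these classes had a smaller share than the 6.01% called over all tested genes. Of 18 mitochondrial tRNA genes 4 were called higher, a larger share.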
